A study of Mus musculus with 9 samples.

Results

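Ccl2, Ccl7, Ccl8 and Ccl12 are neighbouring genes of mouse chromosome 11 that encode CC chemokines of the monocyte chemoattractant group. These 4 genes were chosen by name, with their differences between the groups already known, from 2810 genes that the authors list as different between at least 1 pair of EPC groups. Their values are therefore given as a description, without a test. RNA was sequenced from bone marrow EPCs of 8-week-old C57BL/6J mice that were male (M-EPC), female (F-EPC) or ovariectomized female (OVX-EPC), with 3 libraries per group. The supplier removed the ovaries at around 35 days of age. In all groups, lineage-depleted Sca-1+/CD31+ cells were selected with magnetic beads and expanded in EGM-2 medium before RNA extraction, although the labels also call the cells freshly isolated. The study's methods call the libraries of a group biological replicates. Whether a library came from 1 mouse or from pooled mice is not given in the sources used here, and every SD and standard error measures the spread between these libraries. The groups are called male, female and OVX-EPCs below, and female EPCs are those of intact females.

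Chemokines are small secreted proteins that form gradients and draw leukocytes along them. CCL2, CCL7 and CCL12 bind the receptor CCR2 and draw monocytes out of the bone marrow and into inflamed tissue, whereas mouse CCL8 acts mainly on the receptor CCR8. In the injured heart, CCR2-dependent recruitment supplies the early inflammatory monocytes.

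The 4 genes lie on the plus strand within 81229 bases of GRCm38, the build that the submitters' processing notes name as mm10. Ccl2 spans chr11:82035571-82037453, and Ccl7 follows after 8258 bases at chr11:82045712-82047525. Ccl12 begins 54319 bases further on, at chr11:82101845-82103400, and Ccl8 follows it after 11784 bases at chr11:82115185-82116799. Ccl11 lies between Ccl7 and Ccl12 and is not listed in any comparison, and neither are the other 7 of 8 neighbouring genes that were looked up. Of 47 genes annotated within 1 Mb of the cluster, 22 of them protein-coding, 6 are listed, namely the members and the pseudogenes Gm11425 and Slfn10-ps. Each member has 3 coding exons.

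The coding part of exon 2 is printed for the members because it holds the adjacent cysteine pair that gives CC chemokines their name and shows how far these similar genes can be told apart by reads. The codons of the pair are in capitals, and the other bases are in lower case.
Ccl2, chr11:82036483-82036600: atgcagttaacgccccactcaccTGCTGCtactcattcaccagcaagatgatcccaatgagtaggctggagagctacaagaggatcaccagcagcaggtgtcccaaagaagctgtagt
Ccl7, chr11:82046518-82046629: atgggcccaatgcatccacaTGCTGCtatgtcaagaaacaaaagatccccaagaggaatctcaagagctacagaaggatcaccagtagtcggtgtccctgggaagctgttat
Ccl8, chr11:82116039-82116150: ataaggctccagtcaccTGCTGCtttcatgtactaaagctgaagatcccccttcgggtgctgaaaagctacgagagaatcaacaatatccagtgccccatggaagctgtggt
Ccl12, chr11:82102611-82102728: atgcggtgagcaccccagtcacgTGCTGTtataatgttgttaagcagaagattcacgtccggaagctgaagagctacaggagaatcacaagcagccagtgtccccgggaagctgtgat
The pair is encoded by TGCTGC in Ccl2, Ccl7 and Ccl8, and by TGCTGT in Ccl12. Coding sequences were between 68.8% (Ccl7 and Ccl8) and 72.1% (Ccl2 and Ccl7) identical over their aligned bases. No stretch of 31 bases was shared between the transcripts of any pair of members. The antisense gene Gm17268 spans Ccl2, but its exons do not overlap those of Ccl2. Whether the authors' counting used strand is not stated.

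RefSeq promoters were matched for Ccl12 and Ccl8, and the 250 bases before each gene's start are printed because this pair is contrasted with Ccl2 and Ccl7. Capitals mark the TATA box, TATAAA.
Ccl12, chr11:82101595-82101844: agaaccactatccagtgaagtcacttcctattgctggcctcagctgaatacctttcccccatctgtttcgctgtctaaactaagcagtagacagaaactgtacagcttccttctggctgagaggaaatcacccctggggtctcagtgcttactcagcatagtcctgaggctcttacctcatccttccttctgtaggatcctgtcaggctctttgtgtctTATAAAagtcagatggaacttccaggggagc
Ccl8, chr11:82114935-82115184: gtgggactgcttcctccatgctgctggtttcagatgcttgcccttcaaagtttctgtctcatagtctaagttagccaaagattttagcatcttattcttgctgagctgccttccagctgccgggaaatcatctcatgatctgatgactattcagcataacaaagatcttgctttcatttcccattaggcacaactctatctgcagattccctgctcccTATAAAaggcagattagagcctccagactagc
TATAAA lies at -31 to -26 in Ccl12 and at -32 to -27 in Ccl8, counted back from the gene's start, and occurs on either strand in 12.4% of 32851 RefSeq promoters cut to the same length. The windows hold none of TGANTCA (AP-1, 6.75% of promoters), TTCNNNGAA (GAS, 7.02%), the ISRE (GAAA, any 2 bases, GAAA; 2.98%), CCAAT (33.8%) or the NF-kB consensus (7.25%), each searched on both strands. Over 230 aligned bases they are 65.2% identical, and the longest runs they share are 3 of 8 bases, of which only ggaaatca begins at the same place in both, at -128. The other two are tcagcata and tataaaag, the latter at the TATA box.

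Ccl2, the best-known ligand of CCR2, was highest in female EPCs. Its normalized count, in which the authors scaled reads by a size factor for each library, was 147, 203 and 194 in M-EPC libraries 1 to 3 and 1561, 1547 and 1800 in F-EPC libraries 1 to 3. Every F-EPC library lay above every M-EPC library. The fitted log2 fold change, on log2 of the normalized count plus 1, was -3.18 ± 0.16 (SE, n = 3 per group, male EPCs minus female EPCs), and the ratio of the means was 9.04. In the comparison of female EPCs with OVX-EPCs, for which the authors scaled the libraries anew, Ccl2 was 1619, 1603 and 1868 in female EPCs and 325, 362 and 387 in OVX-EPCs. The groups again did not overlap, and the log2 fold change was 2.24 ± 0.13 (SE, female EPCs minus OVX-EPCs).

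Ccl7, a chemoattractant for monocytes that also acts on eosinophils through CCR3, followed the order of Ccl2 and is the only member listed in every comparison. It was 125, 99.7 and 92.1 in M-EPC libraries 1 to 3 against 1635, 1578 and 1742 in F-EPC libraries 1 to 3. The lowest F-EPC library lay above the highest M-EPC library, with a log2 fold change of -3.97 ± 0.14 (SE, male EPCs minus female EPCs). Scaled against female EPCs, the OVX-EPC libraries held 287, 254 and 218 where female EPCs held 1696, 1635 and 1808, a log2 fold change of 2.76 ± 0.15 (SE, female EPCs minus OVX-EPCs). Scaled against male EPCs, they held 282, 249.98 and 214 where male EPCs held 128, 102 and 94.0. All OVX-EPC libraries lay above all M-EPC libraries, with a log2 fold change of -1.20 ± 0.19 (SE, male EPCs minus OVX-EPCs). With size factors recomputed over the listed genes by RLE in edgeR or by DESeq2, this last difference was -0.57 on the log2 scale and no longer reached a 2-fold change.

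Ccl8, the CCR8 ligand, ran the other way. It was 455, 498 and 545 in M-EPC libraries 1 to 3 and 10.1, 16.5 and 9.48 in F-EPC libraries 1 to 3, which rest on 10, 17 and 10 reads. All M-EPC libraries lay far above all F-EPC libraries, with a log2 fold change of 5.30 ± 0.23 (SE, male EPCs minus female EPCs) and a ratio of means of 41.6. OVX-EPC libraries held 364, 252 and 340 against 10.5, 17.1 and 9.84 in female EPCs on the scale of that comparison. The log2 fold change was -4.59 ± 0.26 (SE, female EPCs minus OVX-EPCs), so the level in cells of ovariectomized females lay apart from that of intact females.

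Ccl12, a CCR2 ligand of mice, is listed between male EPCs and OVX-EPCs only, and its F-EPC values were not used here. Ccl8 is not listed in that comparison, so no comparison lists both genes. Ccl12 was 221, 249 and 258 in male EPCs and 79.9, 82.1 and 76.2 in OVX-EPCs, in libraries 1 to 3. Every M-EPC library lay above every OVX-EPC library, with a log2 fold change of 1.60 ± 0.13 (SE, male EPCs minus OVX-EPCs) and a ratio of means of 3.05. With size factors recomputed over the listed genes by RLE in edgeR or by DESeq2, the log2 fold change was 2.24. Ccl12 was thus higher in male EPCs in the same comparison in which Ccl7 was lower.

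The members make 8 of 12 possible entries in the 3 comparisons, and limma's threshold (a Benjamini-Hochberg adjusted p-value under 0.05 with at least a 2-fold change) was passed in all 8. This says little about the members, because the deposited comparisons hold only genes that had passed the authors' screen. The threshold was passed by 97.6% of 2093 listed genes between male EPCs and female EPCs, 98.8% of 1317 between male EPCs and OVX-EPCs and 98.2% of 811 between female EPCs and OVX-EPCs. In the direction of lower values in the first-named group these shares were 49.3%, 58.0% and 67.3%. Libraries of the groups did not overlap for 98.3%, 99.2% and 98.9% of the listed genes. By the size of the absolute log2 fold change, Ccl8 ranked 35, Ccl7 112 and Ccl2 234 of 2093 between male EPCs and female EPCs. Against OVX-EPCs, female EPCs gave ranks in which Ccl8 was 3, Ccl7 107 and Ccl2 239 of 811. Between male EPCs and OVX-EPCs, Ccl12 ranked 767 and Ccl7 1071 of 1317. These comparisons share libraries, so they are not independent of each other.

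**Figure D1:**
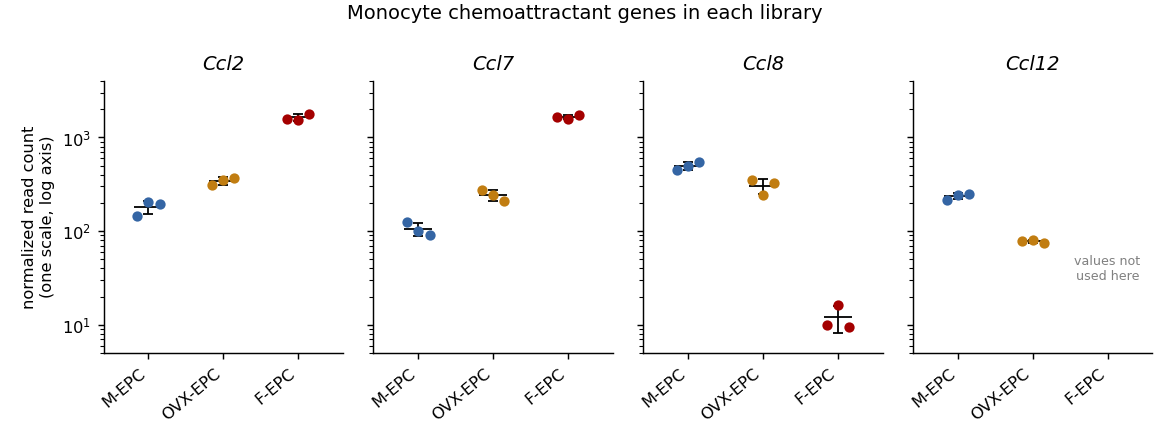
Normalized read counts of the 4 genes (log axis, on the scale of the comparison of male EPCs with female EPCs) in each library, with a point per library and a bar with whiskers for the mean ± SD of 3 libraries. Ccl2 and Ccl7 are highest in female EPCs, at 1547 or more, whereas Ccl8 is lowest there, at 16.5 or less.

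Ccl2, Ccl7 and Ccl8 have values in all 9 libraries, which were brought to the scale of the comparison of male EPCs with female EPCs. The authors normalized the comparisons separately, and a link of the OVX-EPC libraries through male EPCs or through female EPCs differed by at most 0.357%. On this scale Ccl2 was 181 ± 30.2 in male EPCs, 344 ± 30.2 in OVX-EPCs and 1636 ± 142 in female EPCs (mean ± SD, n = 3). Ccl7 was 105 ± 17.1 in male EPCs, 243 ± 33.3 in OVX-EPCs and 1652 ± 83.1 in female EPCs (mean ± SD, n = 3). Ccl8 was 499 ± 45.2 in male EPCs, 306 ± 56.3 in OVX-EPCs and 12.01 ± 3.87 in female EPCs (mean ± SD, n = 3). All 3 genes thus had OVX-EPCs between the other groups, with no overlap of libraries between neighbouring groups. This order depended on the scaling. It held, again without overlap, with size factors recomputed over the 1288 genes that have values in all 9 libraries, by TMM or RLE in edgeR, an alternative chosen after seeing the data. With size factors recomputed by TMM in each comparison alone, the log2 fold change against female EPCs was -3.09 in male EPCs and -3.38 in OVX-EPCs for Ccl2, and -3.87 and -3.89 for Ccl7, so by these fits neither gene had OVX-EPCs in between. The direct comparison with TMM still had Ccl7 lower in male EPCs than in OVX-EPCs, at -1.001 on the log2 scale.

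On a log2 scale running from 0% at the F-EPC mean to 100% at the M-EPC mean, OVX-EPCs stood at 70.7% for Ccl2 and 69.7% for Ccl7. For Ccl8 they stood at 86.5%, and single OVX-EPC libraries lay between 80.5% and 90.4%. Single libraries lay between 67.0% and 75.0% for Ccl2 and between 64.9% and 74.9% for Ccl7. The higher place of Ccl8 rested on the authors' scaling. Recomputed over all libraries together, the places were 82.2%, 79.0% and 79.6% for Ccl2, Ccl7 and Ccl8 with TMM, and 79.5%, 76.9% and 81.3% with RLE, and the OVX-EPC libraries of the 3 genes overlapped. From the separate comparisons they were 109%, 101% and 64.8% with TMM and 95.6%, 90.1% and 70.7% with RLE or DESeq2, which turned the order round. With the authors' scaling, the median over 435 genes listed in both comparisons with female EPCs was 83.4%. In male EPCs against OVX-EPCs, where neither Ccl2 nor Ccl8 is listed, the log2 difference on the authors' scaling was -0.93 for Ccl2 and 0.72 for Ccl8 (male EPCs minus OVX-EPCs). Both are below the 2-fold change of the authors' screen.

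Levels of different genes were compared as normalized counts per kb of the coding transcript, which is 813 bases long for Ccl2, 801 for Ccl7, 511 for Ccl8 and 537 for Ccl12. In male EPCs the order of levels was Ccl8 (977 ± 88.4 per kb), Ccl12 (442 ± 35.2), Ccl2 (223 ± 37.2) and Ccl7 (132 ± 21.3; mean ± SD, n = 3), and no neighbours in it overlapped. In female EPCs, Ccl7 (2062 ± 104 per kb) and Ccl2 (2013 ± 175) overlapped and could not be ordered, and Ccl8 followed at 23.5 ± 7.56, lower than Ccl2 by a factor of 85.6. In OVX-EPCs the order was Ccl8 (599 ± 110.1 per kb), Ccl2 (423 ± 37.2), Ccl7 (304 ± 41.6) and Ccl12 (145 ± 5.40), again without overlap. The place of Ccl2 depended on its length. With all annotated exons, 1138 bases for Ccl2 and the same lengths as before for the other members, an alternative chosen after seeing the data, Ccl2 was 159 ± 26.6 per kb in male EPCs and 302 ± 26.6 in OVX-EPCs and overlapped Ccl7 in both (mean ± SD, n = 3). In female EPCs it was then 1438 ± 125 per kb, below Ccl7 without overlap and higher than Ccl8 by a factor of 61.2.

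Of the per-length sum of Ccl2, Ccl7 and Ccl8, Ccl8 made up 73.3% ± 1.57 in male EPCs, 44.9% ± 4.94 in OVX-EPCs and 0.581% ± 0.215 in female EPCs (mean ± SD, n = 3). The sum itself was 1331 ± 98.0 per kb in male EPCs and 1326 ± 105 per kb in OVX-EPCs (mean ± SD, n = 3). These sums overlapped with the authors' scaling, while the shares, which do not depend on it, did not. With size factors recomputed over all libraries together they no longer overlapped, at 1425 ± 109 per kb in male EPCs and 1109 ± 106 in OVX-EPCs with TMM, and 1366 ± 102 and 1141 ± 85.7 with RLE (mean ± SD, n = 3). In female EPCs the sum was 4098 ± 270 per kb (mean ± SD, n = 3). In bulk RNA, fewer cells that express a gene and less RNA of it per cell cannot be told apart.

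**Figure D2:**
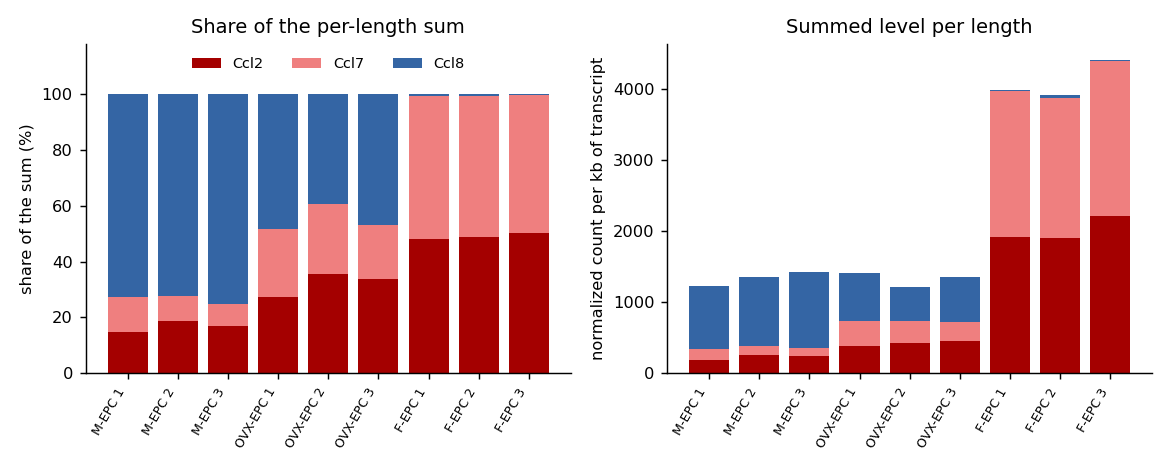
Share of Ccl2, Ccl7 and Ccl8 in their summed level (left, in percent) and the summed level itself (right, normalized counts per kb of coding transcript on one scale), with a bar per library. Ccl8 holds 72.2% or more of the sum in M-EPC libraries and 0.825% or less in F-EPC libraries.

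Ratios between members within a library do not depend on the scaling of the libraries, up to the pseudocount of 1. The log2 ratio of Ccl8 to Ccl2 was 1.63, 1.29 and 1.49 in M-EPC libraries, -7.14, -6.47 and -7.43 in F-EPC libraries, and 0.16, -0.52 and -0.19 in OVX-EPC libraries. Ccl8 therefore had more reads than Ccl2 in every M-EPC library, fewer in every F-EPC library, and about as many in OVX-EPCs. The log2 ratio differed by 8.48 ± 0.30 (SE, n = 3 per group) between male EPCs and female EPCs, and by 1.65 ± 0.22 between male EPCs and OVX-EPCs. Between female EPCs and OVX-EPCs the difference was -6.83 ± 0.35 (SE, female EPCs minus OVX-EPCs).

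Ccl8 to Ccl7 gave the same picture. The log2 ratio was 1.86, 2.31 and 2.55 in M-EPC libraries, -7.20, -6.50 and -7.38 in F-EPC libraries, and 0.34, -0.01 and 0.64 in OVX-EPC libraries. No groups overlapped, and the difference between male EPCs and female EPCs was 9.27 ± 0.34 (SE).

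Ccl2 to Ccl7, the pair that moved together, varied far less. The log2 ratio was 0.23, 1.02 and 1.06 in M-EPC libraries, -0.07, -0.03 and 0.05 in F-EPC libraries, and 0.18, 0.51 and 0.82 in OVX-EPC libraries. F-EPC libraries had nearly equal reads on both genes and lay below all other libraries, by 0.79 ± 0.27 against male EPCs and 0.52 ± 0.19 against OVX-EPCs (SE of the log2 ratio). Male EPCs and OVX-EPCs overlapped, with a difference of 0.27 ± 0.33 (SE). M-EPC library 1 stood nearest to female EPCs, and without it the difference between male EPCs and OVX-EPCs was 0.54. Without OVX-EPC library 1 it was 0.10.

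Ccl12 could be set against the other members in male EPCs and OVX-EPCs. The log2 ratio of Ccl12 to Ccl8 was -1.07, -1.03 and -1.11 in M-EPC libraries and -2.15, -1.58 and -2.12 in OVX-EPC libraries. Ccl12 held about the same part of Ccl8 in all 3 M-EPC libraries and a smaller one in each OVX-EPC library, by 0.88 ± 0.18 (SE). The fall was larger against the other pair, at 2.53 ± 0.13 for Ccl12 to Ccl2 and 2.80 ± 0.22 for Ccl12 to Ccl7 (SE, male EPCs minus OVX-EPCs). In those ratios the groups did not overlap either.

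**Figure D3:**
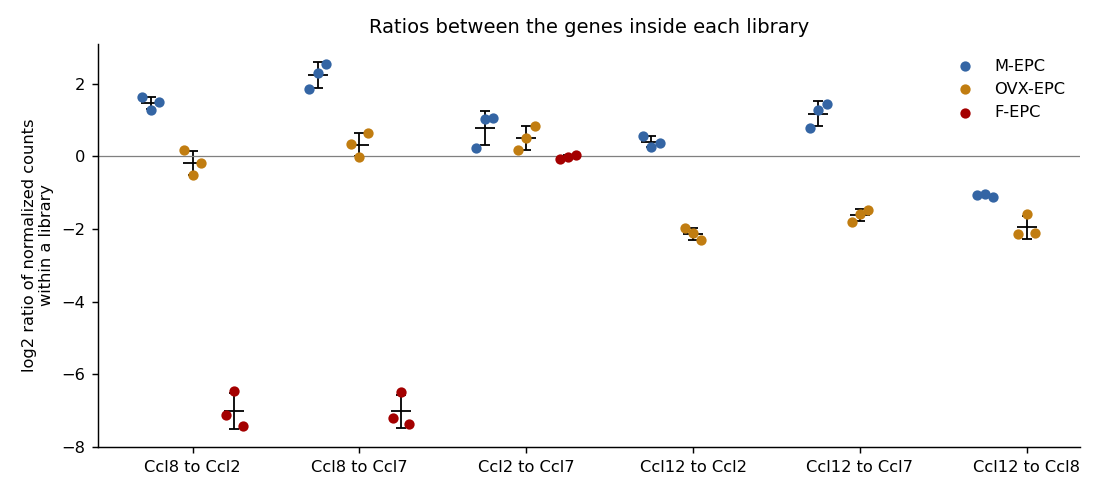
Log2 ratio of normalized counts between pairs of members inside each library, with a point per library and a bar with whiskers for the mean ± SD of 3 libraries. The ratios of Ccl8 to Ccl2 and to Ccl7 fall below -6 in female EPCs alone, and the ratio of Ccl2 to Ccl7 stays between -0.07 and 1.06 in all 9 libraries.

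Recomputing the size factors over the listed genes moved the fold changes of all listed genes together. In female EPCs against OVX-EPCs the median log2 fold change rose by 1.13 with TMM in edgeR and by 1.12 with RLE or DESeq2. TMM gave 3.38 for Ccl2, 3.89 for Ccl7 and -3.53 for Ccl8 there (log2, female EPCs minus OVX-EPCs), where the authors' scaling gave 2.24, 2.76 and -4.59. The differences of Ccl2 and Ccl7 were thus larger, and that of Ccl8 smaller, by about the shift of all listed genes. No member changed its direction under any scaling, while TMM left 49.8% of the listed genes called, 31.4% higher and 18.4% lower in female EPCs, where limma on the authors' scaling called 30.8% higher.

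**Figure D4:**
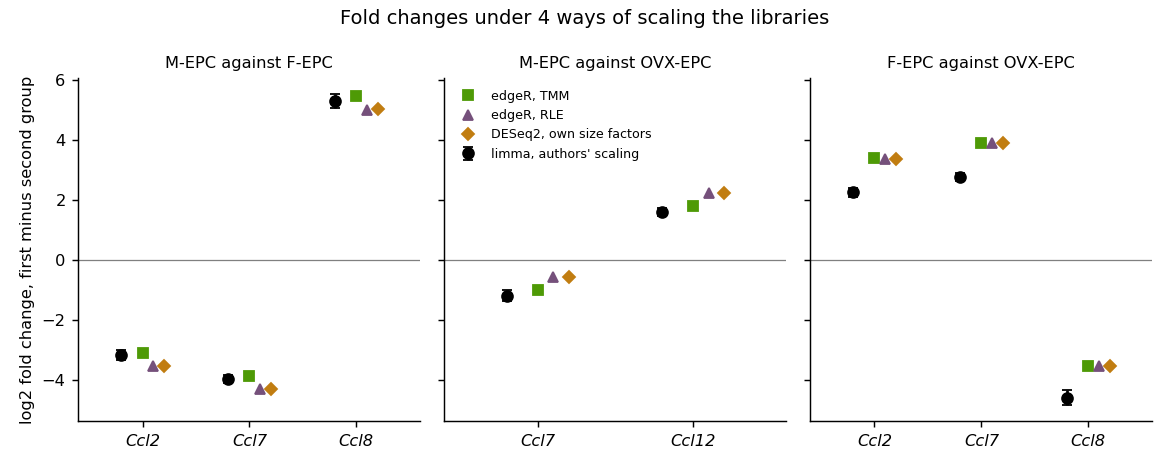
Log2 fold changes of the members listed in each comparison, with the limma fit on the authors' scaling (black, whiskers are the standard error) beside 3 fits with size factors recomputed over the listed genes. Ccl2 and Ccl7 stay on the side opposite to Ccl8 or Ccl12 in every panel, and Ccl7 comes closest to 0, at -0.57, between male EPCs and OVX-EPCs.

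Of the receptors, Ccr2, the receptor of CCL2, CCL7 and CCL12, was lowest in male EPCs. On one scale its normalized count was 85.7, 112 and 72.9 in M-EPC libraries, 235, 197 and 242 in F-EPC libraries, and 292, 327 and 257 in OVX-EPC libraries. Its log2 fold change was -1.32 ± 0.19 against female EPCs and -1.70 ± 0.21 against OVX-EPCs (SE, male EPCs minus the other group). Ccr8 is not listed. Of 20 chemokine receptors, 5 are listed between male EPCs and female EPCs, and all 5 were lower in male EPCs (49.3% of all listed genes were called lower in male EPCs). Ccr3 (-1.14 ± 0.18) and Cx3cr1 (-1.60 ± 0.13), the receptor of fractalkine on monocytes, were among them (log2 ± SE). Ccr7, a receptor for homing to lymph nodes, had at most 1 read in M-EPC libraries against 81 to 101 in F-EPC libraries, and Cxcr2, a neutrophil receptor, had 0 reads against 20 to 38. Between male EPCs and OVX-EPCs, 8 are listed, with 7 lower and 1 higher in male EPCs, Ccr1l1 (2.29 ± 0.57). With TMM, 6 were called lower and 1 higher. Of all genes listed between male EPCs and OVX-EPCs, 58.0% were called lower and 40.8% higher in male EPCs. In that comparison Cxcr1 had 0 reads in every M-EPC library and 8 to 21 in OVX-EPC libraries, Cxcr2 had 5 to 26 in OVX-EPC libraries, and Ccr7 had 13 to 33. Between female EPCs and OVX-EPCs, 3 of 6 were higher and 3 lower in female EPCs, and with TMM the 3 lower ones were not called. Of all genes listed there, 30.8% were called higher and 67.3% lower in female EPCs. None of 4 atypical scavenging receptors is listed.

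Of 17 other CC chemokines, 4 are listed between male EPCs and female EPCs. Ccl5, a chemoattractant of T cells, had the direction of Ccl8, with 1363 ± 69.1 in male EPCs, 88.7 ± 17.7 in female EPCs and 194 ± 4.16 in OVX-EPCs (normalized count on one scale, mean ± SD, n = 3). Its log2 fold change was 3.95 ± 0.18 against female EPCs and 2.81 ± 0.12 against OVX-EPCs (SE, male EPCs minus the other group). Ccl9 had the direction of Ccl2 and Ccl7, at 2258 ± 78.3 in male EPCs, 6599 ± 127 in female EPCs and 2535 ± 206 in OVX-EPCs (mean ± SD, n = 3). Ccl22, a ligand of CCR4, had 2 to 4 reads in M-EPC libraries, 82 to 96 in F-EPC libraries and 21 to 38 in OVX-EPC libraries. Ccl27a did not pass limma's threshold between male EPCs and female EPCs (2.49 ± 1.08) or between female EPCs and OVX-EPCs (-2.52 ± 1.08, log2 ± SE), and its F-EPC libraries held 13, 0 and 11 reads. Its call depended on the tool. With edgeR and the authors' size factors it was called in both, at 1.93 and -1.97 on the log2 scale. Over edgeR with each scaling and DESeq2 its adjusted p ran from 0.000468 to 0.0272 in the first comparison and from 0.0114 to 0.318 in the second.

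Among 9 proteases known to trim CC chemokines, Mmp8, Mmp12 and Dpp4 are listed between male EPCs and female EPCs and were lower in male EPCs. Mmp12, macrophage elastase, was 5232, 5321 and 5766 in M-EPC libraries and 18341, 18526 and 17735 in F-EPC libraries, a log2 fold change of -1.74 ± 0.09 (SE). All 3 were also lower in male EPCs than in OVX-EPCs, by between -1.20 (Mmp12) and -2.33 (Dpp4) on the log2 scale. In female EPCs Mmp2 was lower than in OVX-EPCs (-1.37 ± 0.35), a call that TMM did not make. Of 12 proteoglycans and carriers that hold chemokines, 3 were higher in male EPCs than in female EPCs, namely Srgn (1.16 ± 0.13), Hspg2 (1.65 ± 0.16) and Gpc6, which had 6 to 12 reads in M-EPC libraries and at most 1 in F-EPC libraries. Hspg2 (-2.49 ± 0.17), Vcan (-1.35 ± 0.31) and Sdc1 (-1.22 ± 0.18) were lower in female EPCs than in OVX-EPCs, and 1 of them was called with TMM. Vcan (-1.09 ± 0.26) was lower in male EPCs than in OVX-EPCs, also not called with TMM, which called 93.0% of the genes listed there, 41.7% higher and 51.3% lower in male EPCs.

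NF-kB and AP-1 are the best-known activators of Ccl2. Of 28 genes of the NF-kB pathway, 4 are listed between male EPCs and female EPCs, with Il1b (2.10 ± 0.20), Nfkbie (1.27 ± 0.13) and Tlr2 (1.10 ± 0.09) higher and Il1rn (-1.92 ± 0.09), the interleukin-1 receptor antagonist, lower in male EPCs (log2 ± SE). Il1rn, at 168 ± 5.93 in male EPCs, 285 ± 49.8 in OVX-EPCs and 637 ± 11.3 in female EPCs, had the group order of Ccl2 and Ccl7 (mean ± SD, n = 3), and was higher in female EPCs than in OVX-EPCs (1.17 ± 0.16). Against OVX-EPCs, Il1b (3.32 ± 0.53) and Nfkbiz (1.08 ± 0.14) were higher and Il1a (-1.28 ± 0.18) was lower in male EPCs. Of 23 NF-kB targets outside the cluster, 2 were higher and 3 lower in male EPCs than in female EPCs. Icam1 (1.75 ± 0.10) and Vcam1 (1.78 ± 0.09), adhesion molecules for leukocytes, were higher, and Plau (-1.21 ± 0.09), Selp and Cxcl5 were lower. Against OVX-EPCs, Ptgs2 was higher in male EPCs (1.17 ± 0.15) and Selp, Cxcl5, Lif (-1.32 ± 0.40) and Plaur (-1.19 ± 0.12) were lower. With TMM, 1 of these targets was called higher and 3 lower. Vcam1 was lower in female EPCs than in OVX-EPCs (-2.72 ± 0.10). Of 14 AP-1 and STAT3 genes, Socs3, a feedback inhibitor of STAT3, was higher in male EPCs than in female EPCs (1.24 ± 0.10), and it was lower in female EPCs than in OVX-EPCs (-1.08 ± 0.10), a call that TMM did not make. Fos was higher in female EPCs than in OVX-EPCs (1.02 ± 0.12).

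Of 32 interferon response genes, 13 were higher and none lower in male EPCs than in female EPCs (48.4% of all listed genes were called higher in male EPCs), with a median log2 fold change of 3.87 against -0.99 over all listed genes. Between male EPCs and OVX-EPCs, 17 were higher and none lower in male EPCs (40.8% of all listed genes were called higher), with a median of 2.19 against -1.26. Cxcl9, a chemokine for T cells that interferon gamma induces, was 594, 630 and 520 in M-EPC libraries, 25.2, 4.84 and 10.4 in F-EPC libraries, and 76.3, 79.3 and 61.3 in OVX-EPC libraries (normalized count on one scale). Gbp2, a guanylate-binding protein of the same response, was 20987 ± 550 in male EPCs, 2560 ± 83.3 in OVX-EPCs and 680 ± 36.9 in female EPCs (mean ± SD, n = 3). Both had the group order of Ccl8. On the log2 scale their level in OVX-EPCs lay nearer to female EPCs, whereas that of Ccl8 lay nearer to male EPCs. Ciita, the activator of MHC class II genes, differed by 5.05 ± 0.12 from female EPCs (log2 ± SE), and Gbp2b had 326 to 422 reads in M-EPC libraries, 0 to 4 in F-EPC libraries and 1 to 7 in OVX-EPC libraries.

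Between female EPCs and OVX-EPCs the interferon list split, with 7 genes higher and 7 lower in female EPCs. Of all genes listed there, 30.8% were called higher and 67.3% lower. Irf7 (1.89 ± 0.10), Mx1 (1.92 ± 0.12) and Isg15 (1.87 ± 0.15), antiviral genes of type I interferon, were higher in female EPCs. Ciita (-2.79 ± 0.15), Cxcl9 (-2.60 ± 0.55) and Gbp5 (-2.00 ± 0.15) were lower. With TMM, 7 were called higher and 2 lower in female EPCs, beside 31.4% and 18.4% of all listed genes. Of 18 genes of the response to interleukin-4 or interleukin-10, 5 were higher and 2 lower in male EPCs than in female EPCs, led by Clec10a (2.49 ± 0.11) and Mgl2 (2.37 ± 0.13), C-type lectins of macrophages, and Il10ra (1.38 ± 0.08), and with Ccl22 and Chil3 (-1.40 ± 0.23) lower. Against OVX-EPCs, Chil3 (1.49 ± 0.34) and Mgl2 (1.08 ± 0.14) were higher in male EPCs and Ccl22 was lower. In female EPCs against OVX-EPCs, 2 of these genes were higher and 4 lower, and none of the 4 was called lower with TMM.

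**Figure D5:**
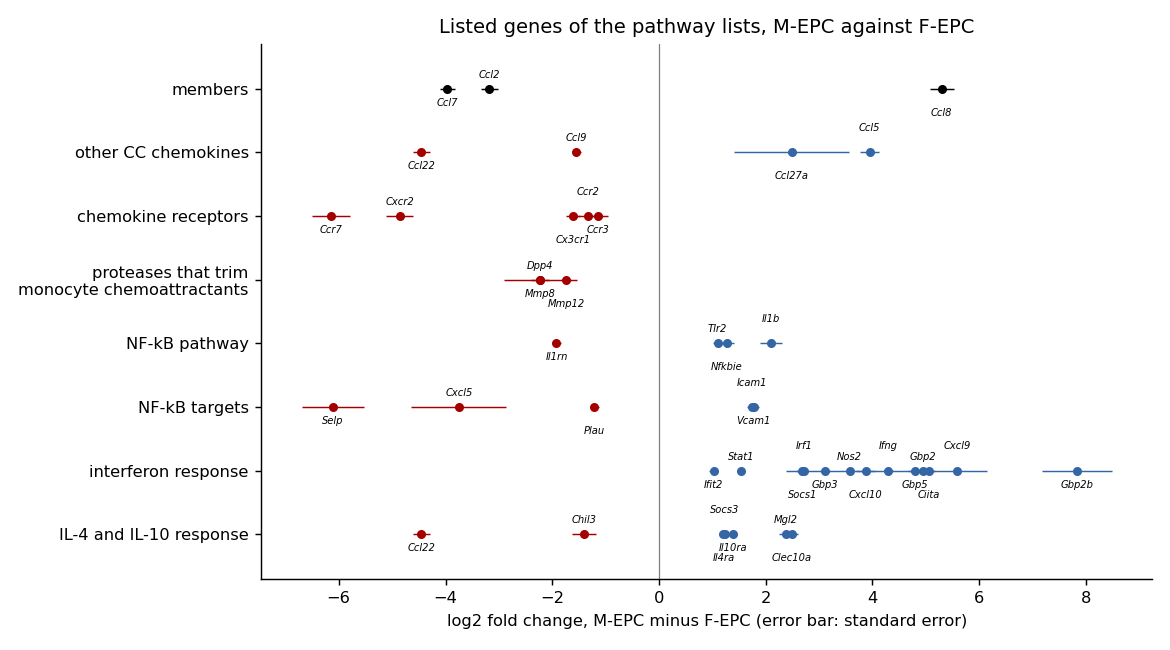
Log2 fold change between male EPCs and female EPCs (male EPCs minus female EPCs, whiskers are the standard error) for members and for the listed genes of 7 gene lists, black for members, blue for higher and red for lower in male EPCs. All 13 listed interferon response genes lie on the side of Ccl8, and all 5 listed receptors lie on the side of Ccl2 and Ccl7. Fitted values of genes near 0 reads in a group, such as Ccr7, Cxcr2, Selp and Gbp2b, depend on the pseudocount.

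By Pearson's r on log2 of the count plus 1 over 9 libraries and 1287 other genes, the genes most like Ccl2 were Aldh18a1 (0.996), Igf2bp2 (0.992), Azin1 (0.990), Mthfd2 (0.990) and Elovl6 (0.990). Those most like Ccl7 were Asns (0.996), Igf2bp2 (0.995), Oasl1 (0.995), Phgdh (0.993) and Azin1 (0.992). Aldh18a1, Asns, Mthfd2 and Phgdh encode enzymes of amino acid and one-carbon metabolism. Asns, asparagine synthetase, was 320 ± 22.2 in male EPCs, 506 ± 19.8 in OVX-EPCs and 2227 ± 90.5 in female EPCs (mean ± SD, n = 3).

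The genes most like Ccl8 were Gprc5c (0.996), Lag3 (0.995), Fcgr2b (0.994), Slco2b1 (0.993) and Fcgrt (0.993). Fcgr2b, the inhibitory Fc receptor of macrophages and B cells, was 14652 ± 370 in male EPCs, 12822 ± 90.6 in OVX-EPCs and 4422 ± 107 in female EPCs (mean ± SD, n = 3). Over the 6 libraries of male EPCs and OVX-EPCs and 1628 other genes, those most like Ccl12 were Gm18301, 4930568A12Rik and Gnb4 (0.998 each), then Parp14 and Arrdc4 (0.997 each). The groups lie apart for all these genes, so r mainly follows the group levels, and the libraries share their depth and scaling.

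Values of endothelial markers are given because of the label of the cells, and whether the label holds was not tested. Pecam1 (CD31) and Ly6a (Sca-1), the genes of the selection, were present in every library, with Pecam1 at 487 ± 3.64 in male EPCs and 157 ± 7.56 in female EPCs, and Ly6a at 259 ± 48.6 in male EPCs and 575 ± 27.3 in female EPCs (mean ± SD, n = 3). Of 16 endothelial markers 6 are listed between male EPCs and female EPCs, with 5 lower in male EPCs (49.3% of all listed genes were called lower). Their summed normalized counts were 998 to 1114 in M-EPC libraries and 3476 to 3567 in F-EPC libraries. The macrophage marker C1qa had higher normalized counts than each of these 6 in both groups, whereas Folr2, the other macrophage marker listed there, did not. Vwf was 232 ± 18.3 in male EPCs, 2351 ± 53.1 in female EPCs and 3376 ± 191 in OVX-EPCs (mean ± SD, n = 3). The other 10 endothelial markers are not listed and were not analysed here.

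Markers of other bone marrow cells moved with the groups as well. Between male EPCs and female EPCs, 49.3% of all listed genes were called lower and 48.4% higher in male EPCs. Of 12 monocyte markers 6 are listed between male EPCs and female EPCs, 5 of them lower in male EPCs, and they summed to 598 to 740.0 in M-EPC libraries and 1459 to 1615 in F-EPC libraries. Of 18 macrophage markers 2 are listed there, and they moved in opposite directions. C1qa was 20234 ± 1041 in male EPCs and 8805 ± 338 in female EPCs, whereas Folr2 was 53.3 ± 6.77 in male EPCs and 187 ± 38.5 in female EPCs (mean ± SD, n = 3). Of 14 dendritic cell markers 8 are listed, 4 in each direction, with sums of 130133 to 134294 in M-EPC libraries and 4144 to 4535 in F-EPC libraries that came mostly from Cd74, H2-Aa and H2-Ab1. Cd209a was at 0 reads in every M-EPC library.

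The listed granulocyte markers were lower in male EPCs than in female EPCs (49.3% of all listed genes were called lower in male EPCs). Of 11 mast cell and basophil markers 8 are listed and lower in male EPCs, with sums of 33.5 to 60.2 in M-EPC libraries and 592 to 621 in F-EPC libraries, and Mcpt8 was at 0 in every M-EPC library. Of 12 neutrophil markers 8 are listed and lower, with sums of 79.9 to 109 in M-EPC libraries and 695 to 733 in F-EPC libraries, and Cxcr2 was at 0 in every M-EPC library. Of 14 stromal cell markers 2 are listed and higher in male EPCs, with sums of 317 to 342 against 105 to 123.

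Of all genes listed between female EPCs and OVX-EPCs, 67.3% were called lower and 30.8% higher in female EPCs, and 18.4% and 31.4% with TMM. In female EPCs against OVX-EPCs, 6 stromal markers were lower in female EPCs, with sums of 201 to 263 in F-EPC libraries against 908 to 1051 in OVX-EPC libraries. The macrophage markers Cd163 and Timd4 were lower as well, with sums of 51.1 to 81.7 against 162 to 200.03, and so were 2 monocyte markers, with sums of 494 to 632 against 1218 to 1324. Of 5 dendritic cell markers 4 were lower and 1 higher in female EPCs, with sums of 4178 to 4610.1 against 23063 to 25129. Of 5 neutrophil markers 4 were higher in female EPCs, with sums of 575 to 631 against 139 to 163. Of the endothelial markers, Pecam1 was lower (-1.21 ± 0.11) and Ly6a higher (1.31 ± 0.14) in female EPCs (log2 ± SE), with sums of 736 to 774 against 583 to 636. No mast cell or basophil marker is listed there. With TMM, 3 of the stromal, 3 of the dendritic cell and none of the macrophage, monocyte and endothelial markers were called lower in female EPCs.

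Marker sums differed between male EPCs and OVX-EPCs, the comparison that holds Ccl12, as well. Of all genes listed there, 58.0% were called lower and 40.8% higher in male EPCs. Of 6 listed monocyte markers 5 were lower and 1 was higher in male EPCs, with sums of 540 to 625 in M-EPC libraries and 1721 to 1866 in OVX-EPC libraries. The marker that was higher, Treml4, was 263 ± 2.99 in male EPCs and 70.7 ± 13.04 in OVX-EPCs (normalized count, mean ± SD, n = 3). Of 8 dendritic cell markers 5 were lower, Ccr7 and Siglech among them, and 3 were higher in male EPCs, namely Cd74, H2-Aa and H2-Ab1, which made up most of the sums of 134179 to 138133 in M-EPC libraries and 25399 to 27695 in OVX-EPC libraries. All listed markers of the remaining cell types were lower in male EPCs. The 4 endothelial markers summed to 319 to 352 in M-EPC libraries and 3763 to 4107 in OVX-EPC libraries, the 8 mast cell and basophil markers to 34.2 to 61.5 and 868 to 1039, the 6 neutrophil markers to 25.3 to 56.0 and 241 to 334, and the 3 stromal cell markers to 26.9 to 56.9 and 104 to 156. No macrophage marker is listed there. With TMM, 4 of the monocyte and 5 of the neutrophil markers were called lower in male EPCs. Monocytes, macrophages, granulocytes and stromal cells can express genes of the cluster, and the part of these cells in the members' differences between groups was not tested.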

How the data were processed

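The RNA-seq libraries, 3 of each EPC group, were grouped by the sample labels. The authors made directional NEBNext libraries, mapped by HISAT2, took expression from Cuffquant and Cuffnorm, compared groups in DESeq and screened genes on a fold change of at least 2. For each of 3 comparisons they deposited the signal of every screened gene and library as a normalized count (reads divided by a size factor), beside their own fold changes and p-values, which were not used here. Multiplied by the size factor, 100% of values were whole reads within 0.01 reads. This gave between 454298 and 2070442 reads on the listed genes of a library. Total depth is unknown, and 3 reads or fewer were taken as the floor, which covers counting error only.

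The members and all 18 gene lists were chosen with earlier results of these data known. Limma 3.58.1 (R 4.3.3) was applied, after adding 1 and taking log2, to the listed genes of each comparison (mean of at least 1 in either group, no covariate), because the deposited values are normalized. The threshold was a Benjamini-Hochberg adjusted p-value under 0.05 together with at least a 2-fold change. Named genes were the members, all listed genes of a list with 5 or fewer listed, otherwise up to 3 with the largest change per direction, and the 5 genes most like each member; Ccr2 in the comparison with OVX-EPCs and the marker genes printed with values were named after their values were seen. The code of the fit was tested on simulated data, where 4-fold changes were put into 200 genes of each comparison. All 200 were recovered, with at most 4 false calls. Changes went only into genes of higher mean, all others were left equal, and the dispersion was fixed. Most listed genes of the data differ, so this says nothing about the fits of the members. Alternatives used edgeR 4.0.16 and DESeq2 1.42.0 on the recovered reads. Libraries of a group differed by a chi-square per degree of freedom between 3.07 and 24.8, which gave no sign of the same library appearing more than once. Positions and exons came from the GENCODE annotation of GRCm38, and promoters from RefSeq (GRCm38.p6). Figures were drawn with matplotlib 3.10.9 and alignments made with Biopython 1.88.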

Additional observations from a re-analysis of the deposited data

How the results depend on the processing

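The members' directions, and the sides of the threshold on which they lay, held under another pseudocount, filters, the replicate block, edgeR with the authors' size factors and TMM, and each library left out. The exception was Ccl7 between male EPCs and OVX-EPCs, with -0.57 under edgeR with RLE and -0.57 under DESeq2. Without 1 library at a time, log2 fold changes between male EPCs and female EPCs were -3.27 to -3.03 for Ccl2, -4.09 to -3.88 for Ccl7 and 5.16 to 5.53 for Ccl8. Between male EPCs and OVX-EPCs they were -1.33 to -1.11 for Ccl7 and 1.55 to 1.66 for Ccl12, and between female EPCs and OVX-EPCs 2.17 to 2.30 for Ccl2, 2.66 to 2.86 for Ccl7 and -4.82 to -4.45 for Ccl8. No ratio within a library changed its direction or moved by more than the spread between libraries under pseudocount 0.1 or without 1 library.

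Over all listed genes, the number called between female EPCs and OVX-EPCs was 796, and 404 with TMM, 405 with RLE and 380 with DESeq2. The median log2 fold change there rose by 1.13 with TMM and by 1.12 with RLE or DESeq2. Fold changes of the members moved with it by more than 1.5 times, as given above. Between male EPCs and OVX-EPCs it rose by 0.20 with TMM and 0.62 with RLE or DESeq2, and between male EPCs and female EPCs it fell by 0.35 with RLE or DESeq2. Of the called genes, those higher in the first-named group went from 49.5% to 37.2% with DESeq2 between male EPCs and female EPCs, and from 41.3% to 52.6% between male EPCs and OVX-EPCs. In female EPCs against OVX-EPCs they went from 31.4% to 67.1% with DESeq2, and to 63.1% with TMM. A 4-fold change as the minimum left 738, 574 and 300.0 genes in the 3 comparisons. The number of genes called without 1 library was 1864 to 1913 between male EPCs and female EPCs, 1208 to 1235 between male EPCs and OVX-EPCs and 724 to 755 between female EPCs and OVX-EPCs. Of 52 counts of list genes under edgeR, 7 moved by more than 1.5 times, all with TMM, and 6 of them between female EPCs and OVX-EPCs.

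Replicate numbers are shared between groups but nothing says that they mark the same animals or days. Deviations of libraries with the same number correlated between -0.019 and 0.032, and those with different numbers between -0.049 and 0.036. This gave no sign of a pairing, but it cannot exclude a shared animal or day. With a replicate block, 2003, 1288 and 781 genes were called, and the log2 fold changes of the members were the same as without it.

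The size factors were recomputed on genes chosen for their differences, which leaves few unchanged genes to scale by. Genes outside the deposited comparisons were not used, so dispersion and scaling across all expressed genes are not known. Ccl8 in female EPCs rests on 10 to 17 reads per library, which limits its fold changes more than those of the other members.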
